A study of Homo sapiens with 4 samples.

Results

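The 60 genes described here encode the SR proteins (SRSF, 12 genes), the hnRNP proteins (HNRNP, 27), the small nuclear ribonucleoprotein (snRNP) proteins (SNRP, 12) and the SF3A and SF3B subunits of the U2 snRNP (3 and 6). They are the protein-coding genes of the count table, out of 64252 gene IDs, whose symbols start with SRSF, HNRNP, SNRP, SF3A or SF3B. The rule itself uses symbols and gene type only, although it was set with earlier results of these data known. The counts come from Jurkat cells, an established human leukemia line of the T cell lineage (T-ALL), profiled by RNA-seq. One group received an shRNA against SOX4 (sh-SOX4, 2 libraries) and the other a scramble shRNA (sh-Scb, 2 libraries). All 4 libraries therefore come from transfected, hairpin-carrying Jurkat cells, and none from untransfected ones. The sources used here give neither the hairpin sequences, nor the time after transfection, nor whether the cells were a clone or a pool.

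Splicing removes introns from a new transcript in the spliceosome, which is built from the U1, U2, U4/U6 and U5 snRNPs. A ring of Sm proteins surrounds the RNA of most of these particles, and SF3A and SF3B hold the U2 snRNP on the branch site. SR proteins bind exonic enhancers through RNA recognition motifs and recruit the machinery through a tail rich in arginine and serine, whereas hnRNP proteins coat new transcripts and often silence exons. In T cells, both kinds of protein set alternative exon choice, with the exons of the phosphatase CD45 (PTPRC) as the classical case.

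SOX4, the gene targeted by the hairpin, had 191 and 199 CPM (counts per 1000000) in sh-SOX4 libraries, against 271 and 277 CPM in sh-Scb libraries, so that 71.1% of the control level was left. Its log2 fold change was -0.49 (95% interval -0.59 to -0.39; edgeR quasi-likelihood test, Benjamini-Hochberg adjusted p = 1.24e-05). Here and below, CPM values are scaled for library composition, SDs are over n = 2 libraries, log2 fold changes are sh-SOX4 over sh-Scb, and adjusted p-values come from that edgeR test over the 19897 IDs tested, called below 0.05. The libraries held 32872606 and 30830081 counts with sh-SOX4, against 36636219 and 29093287 with sh-Scb. All 12 T cell markers checked were detected, and 6 were called higher and 3 lower, against 23.2% and 20.9% of all IDs tested. Their summed level was 1905 to 1993 CPM in sh-SOX4 libraries and 1635 to 1692 CPM in sh-Scb libraries. The 6 TAL1-type T-ALL markers summed to 1398 and 1404 CPM with sh-SOX4, against 1118 and 1152 CPM with sh-Scb. Of these, 3 were called higher and none lower. The B cell list of 6 markers summed to 15.1 to 16.7 CPM with sh-SOX4 and 67.4 to 69.4 CPM with sh-Scb, mostly from CD79A (13.3 ± 0.204 CPM with sh-SOX4 and 66.6 ± 0.899 CPM with sh-Scb). Of the 5 B cell markers tested, 1 was called higher and 2 lower. The myeloid, erythroid, fibroblast and epithelial lists each summed to between 0.767 and 26.0 CPM in every library. LYZ, COL1A2 and 2 of the 5 erythroid markers were at 0. The part of the B cell marker difference in the splicing factor values was not tested. Fewer cells of a kind and less RNA per cell cannot be told apart in these bulk libraries.

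With levels scaled for library composition, most splicing factors rose moderately. Of the 56 members with enough counts to test, 33 rose and 8 fell with sh-SOX4, so that 73.2% were called, against 44.1% of all IDs tested. The members are abundant, and among IDs at 10 CPM or more in at least 2 libraries the share called was 63.1%, nearer to that of the members. By direction, 58.9% of the tested members rose and 14.3% fell, against 36.7% and 26.4% of those abundant IDs. The median log2 fold change of the tested members was 0.25, against -0.01 for all tested IDs and 0.07 for the abundant ones. Most of the called changes were small, as among abundant genes in general: 31 of the 56 tested members were called at less than 1.5-fold, against 22.7% of all tested IDs and 40.8% of abundant IDs. No member was called at 2-fold or more, whereas 9.45% of all tested IDs and 6.22% of abundant IDs were. The groups did not overlap for 51 of the 56 tested members, against 72.9% of all tested IDs and 83.5% of abundant IDs. With scaling to library totals alone, 27 of the 56 tested members rose and 12 fell. Of all 19897 IDs tested, 3629 were then called higher and 5260 lower. Rises made up 69.2% of the member calls, against 40.8% of the calls over all IDs, and the median of all tested IDs moved to -0.11. Without sh-SOX4 replicate 2, 4 members fell in place of 8. The 4 untested members, HNRNPCL1 to HNRNPCL4, had no count in any library.

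Together the 60 genes took 1.87% and 1.83% of all counts in sh-SOX4 libraries, against 1.71% and 1.69% in sh-Scb libraries. Their summed level averaged 19177 ± 360.2 CPM with sh-SOX4 and 16488 ± 183 CPM with sh-Scb (SD, n = 2), a difference of 16.3%. This sum and the family sums use CPM scaled for library composition. The scaling factors were 0.966 and 0.967 with sh-SOX4, against 1.033 and 1.037 with sh-Scb. Under library totals, without these factors, each difference in sum would be smaller. The SNRP genes differed most in sum (27.0%), then the HNRNP genes (17.6%), the SF3A and SF3B genes (15.2%) and the SRSF genes (8.87%). Their medians of log2 fold change, in the same order, were 0.51, 0.28, 0.16 and 0.21. All 4 family medians were above 0 under each of 4 scalings, and all were lowest under library totals (0.41, 0.18, 0.06 and 0.12). Calls made up 83.3% of tested SRSF genes, 73.9% of HNRNP, 83.3% of SNRP and 44.4% of SF3A and SF3B genes. The share was 44.1% of all tested IDs and 63.1% of IDs at 10 CPM or more. Differences between the families were not tested.

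**Figure D1:**
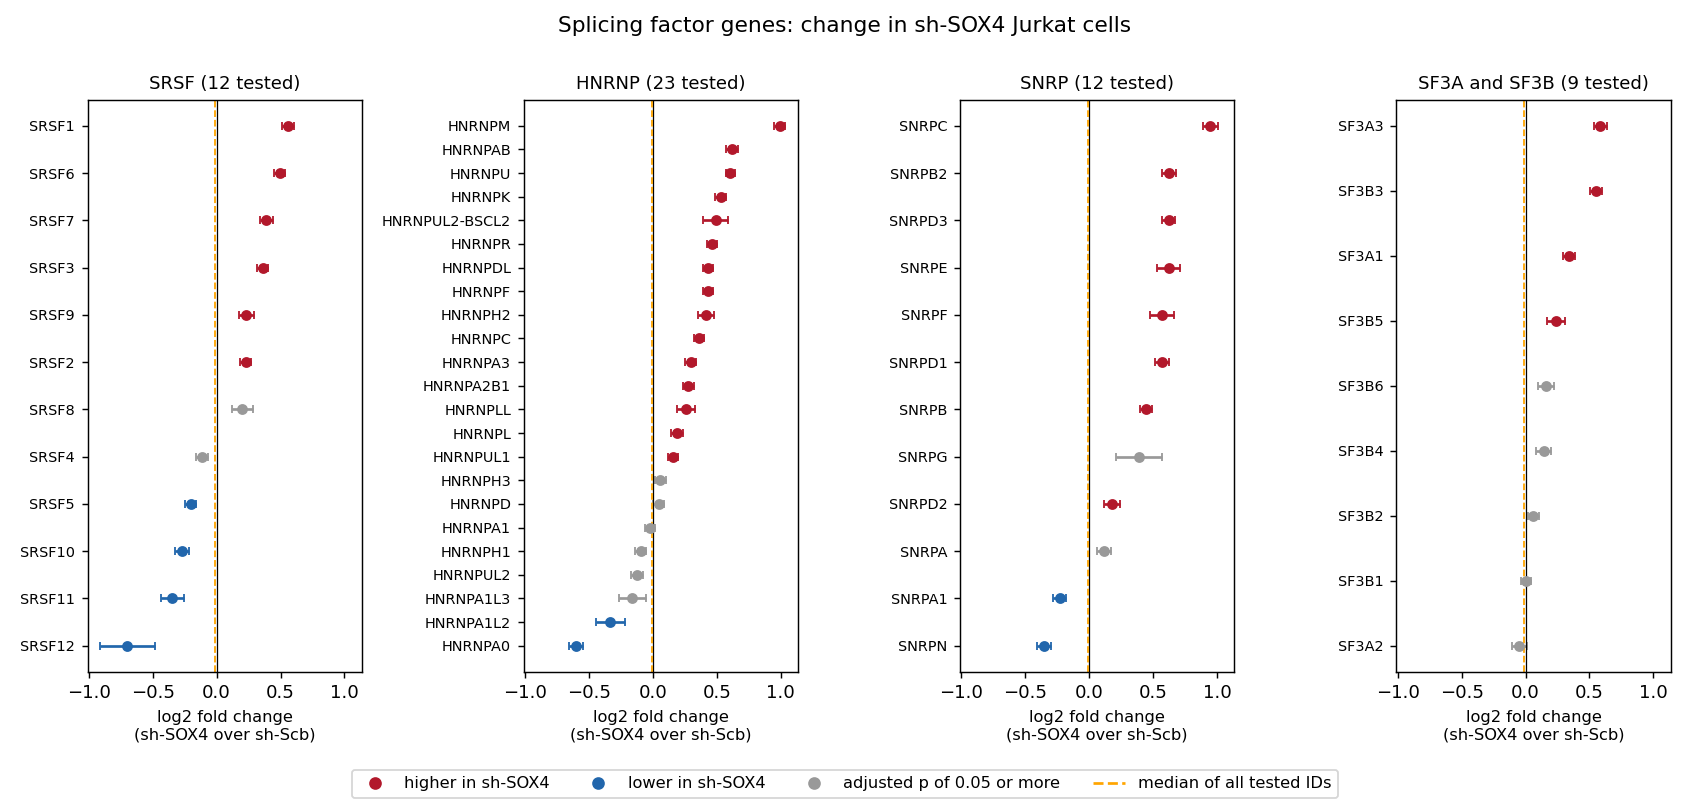
Log2 fold change of each tested member (sh-SOX4 over sh-Scb) by family, with bars of 1 SE of the edgeR fit and a dashed line at the median of all tested IDs. Called rises outnumber called falls in every family as shown. SRSF is even at 5 and 5 under library totals, and has 3 rises and 4 falls without members sharing 20% or more of exonic bases. HNRNPM (0.99) and SNRPC (0.95) lie highest and SRSF12 (-0.70) and HNRNPA0 (-0.60) lowest.

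**Figure D2:**
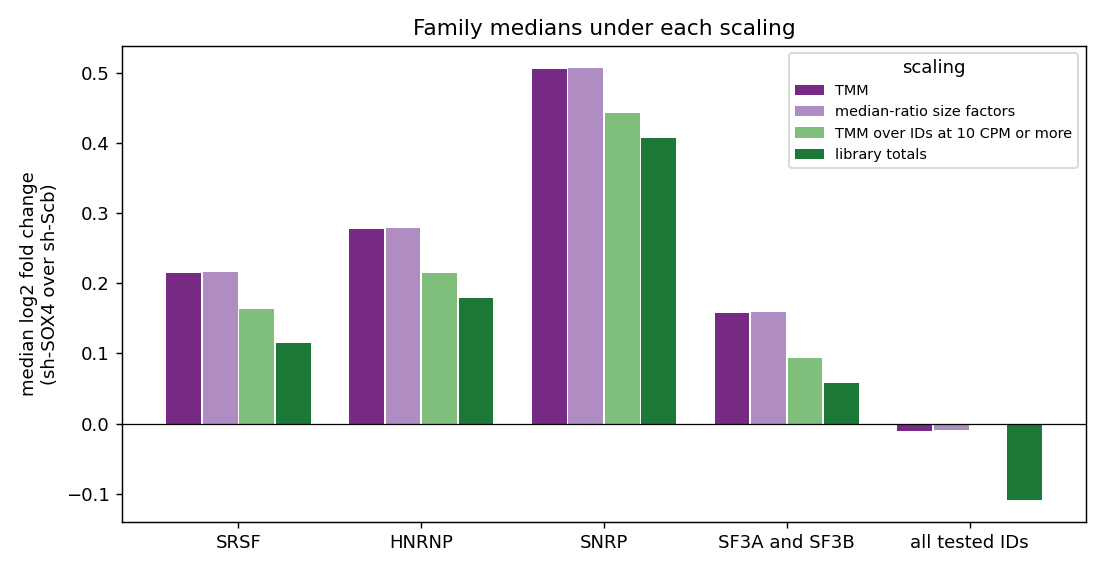
Median log2 fold change (sh-SOX4 over sh-Scb) of the tested members of each family and of all tested IDs under 4 ways of scaling the libraries. Library totals give the lowest medians, and the SNRP median is the highest of the 4 families under each scaling (0.41 to 0.51).

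The SR proteins moved in both directions: of 12 genes, 6 rose and 4 fell, or 5 and 5 under library totals. The rises were all among the 9 classical members, SRSF1 to SRSF9, whose sum was 2632 and 2577 CPM in sh-SOX4 libraries, against 2143 and 2101 CPM in sh-Scb libraries. SRSF1, the founding SR protein (ASF/SF2) and a splicing activator that can act as an oncoprotein, rose most. Its gene lies at chr17:58003360-58007346 and had 572 and 549 CPM in sh-SOX4 libraries, against 392 and 369 CPM in sh-Scb libraries. Both sh-SOX4 libraries were above both sh-Scb libraries, by 1.47-fold in the fit (log2 fold change 0.56, SE 0.045, adjusted p = 6.37e-06). Other annotated genes cover 60.7% of its exonic bases, so some of its reads may belong to them. SRSF6, which like SRSF4 and SRSF5 carries a pair of RNA recognition motifs, had 375 and 353 CPM in sh-SOX4 libraries, against 261 and 257 CPM in sh-Scb libraries (log2 fold change 0.49, SE 0.045, adjusted p = 1.33e-05). SRSF7, an SR protein with a zinc knuckle that also helps export messenger RNA, had 173 and 166 CPM with sh-SOX4, against 133 and 126 CPM with sh-Scb (log2 fold change 0.39, SE 0.050, adjusted p = 0.000136). SRSF3, the smallest classical SR protein and another export adaptor, had 489.5 and 487 CPM with sh-SOX4, against 393 and 367 CPM with sh-Scb (log2 fold change 0.36, SE 0.044, adjusted p = 0.000104). In all of these the groups stood apart by more than the libraries of a group differed. These genes were named by a rule that took only called genes whose groups do not overlap, so their separation is not an added result. The same holds for the separation described below for SRSF5, SRSF10, HNRNPM, HNRNPA0, SNRPC, SNRPA1 and SNRPN.

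The other classical SR genes changed less. SRSF2 (SC35), which is recurrently mutated in myelodysplastic syndromes, had 472 and 488 CPM with sh-SOX4, against 407 and 414 CPM with sh-Scb (log2 fold change 0.23, adjusted p = 0.00112); MFSD11 and MIR636 cover 36.7% of its exonic bases. SRSF9, a short SR protein close to SRSF1, had 134 and 129 CPM with sh-SOX4, against 106 and 118 CPM with sh-Scb (log2 fold change 0.23, adjusted p = 0.0107). It shares 46.2% of its exonic bases, and its adjusted p was 0.0622 without sh-SOX4 replicate 1, 0.0569 without sh-Scb replicate 1 and 0.105 under library totals. Without the members that share at least 20% of exonic bases with other genes, 3 SRSF genes rose, 4 fell and the family median was -0.11. SRSF8, a retrocopy relative of SRSF2, and SRSF4 missed the test, at log2 fold changes of 0.20 (adjusted p = 0.0633) and -0.11 (adjusted p = 0.0748). SRSF4 was called lower under library totals (-0.21, adjusted p = 0.00414), at 10 CPM or more (-0.17, adjusted p = 0.00679) and with protein-coding IDs only (-0.15, adjusted p = 0.0157). SRSF8 was called higher without sh-Scb replicate 1 (adjusted p = 0.0219). SRSF5 was the only classical member called lower, with 245 and 235 CPM with sh-SOX4, against 275 and 277 CPM with sh-Scb (log2 fold change -0.20, SE 0.043, adjusted p = 0.00357). Its groups did not overlap, and its adjusted p was 0.0503 without sh-SOX4 replicate 2.

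SRSF10, SRSF11 and SRSF12, the SR proteins outside the classical set, all fell, and their sum was 876 and 804 CPM in sh-SOX4 libraries, against 979 and 1104 CPM in sh-Scb libraries. SRSF10, which turns into a general splicing repressor when it loses its phosphates, for example after heat shock, had 439 and 409 CPM in sh-SOX4 libraries, against 489.6 and 534 CPM in sh-Scb libraries (log2 fold change -0.27, SE 0.053, adjusted p = 0.00235). Both of its sh-SOX4 libraries lay below both sh-Scb libraries. SRSF11 (p54), which binds the U2AF splicing factor, had 434 and 391 CPM in sh-SOX4 libraries, against 485 and 565 CPM in sh-Scb libraries (log2 fold change -0.35, SE 0.089, adjusted p = 0.0262). The 2 sh-Scb libraries of SRSF11 spread widely, and its adjusted p was 0.0680 without sh-SOX4 replicate 2 and 0.0540 under limma-voom. SRSF12 was the least abundant tested member, with 94 and 83 counts in sh-SOX4 libraries, against 159 and 155 counts in sh-Scb libraries (log2 fold change -0.70, SE 0.21, adjusted p = 0.0237). DESeq2 also gave -0.70, but with an adjusted p of 0.0892, so SRSF12 was not called there. The SRSF12 groups did not overlap, but the call was lost when sh-SOX4 replicate 1, sh-SOX4 replicate 2 or sh-Scb replicate 2 was left out (adjusted p of 0.0538, 0.0822 and 0.152). Without sh-SOX4 replicate 2, 1 SRSF gene was called lower in place of 4.

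The hnRNP genes held the largest single rise, and of 23 tested members 15 rose, 2 fell and 6 were not called (12 rises and 5 falls under library totals, and 1 fall without sh-SOX4 replicate 2). HNRNPM, which binds G- and U-rich sequence and controls exon choice in the epithelial to mesenchymal transition, lies at chr19:8444767-8489114. It had 344 and 335 CPM in sh-SOX4 libraries, against 174 and 167 CPM in sh-Scb libraries. Both sh-SOX4 libraries were well above both sh-Scb libraries (1.99-fold, log2 fold change 0.99, SE 0.044, adjusted p = 1.43e-07). Means were 339 ± 5.87 CPM with sh-SOX4 and 171 ± 4.98 CPM with sh-Scb. HNRNPM is grouped here by hand with HNRNPK, HNRNPL, HNRNPLL and HNRNPR, a mixed set that was not tested as one. All 5 were called higher, against 23.2% of all tested IDs and 36.7% of those at 10 CPM or more. Their sum was 2052 and 2037 CPM in sh-SOX4 libraries, against 1464 and 1423 CPM in sh-Scb libraries. HNRNPK, a poly(C)-binding protein with KH domains, had 838 and 814 CPM in sh-SOX4 libraries, against 588 and 557 CPM in sh-Scb libraries (log2 fold change 0.53, SE 0.042, adjusted p = 5.16e-06). HNRNPR, a relative of SYNCRIP, had 459 and 455 CPM with sh-SOX4, against 330.2 and 334 CPM with sh-Scb (log2 fold change 0.46, adjusted p = 8.64e-06).

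HNRNPL and HNRNPLL bind CA-rich sequence and both silence the variable exons of CD45 in T cells. HNRNPLL, the form induced on T cell activation, had 54.1 and 51.3 CPM with sh-SOX4, against 44.1 and 44.0 CPM with sh-Scb (log2 fold change 0.26, SE 0.068, adjusted p = 0.0109). HNRNPL had 358 and 382 CPM with sh-SOX4, against 328 and 321 CPM with sh-Scb (log2 fold change 0.19, SE 0.045, adjusted p = 0.00632). Neither pair of groups overlapped, but both calls were lost under library totals (adjusted p of 0.0799 for HNRNPLL and 0.126 for HNRNPL). The HNRNPLL call was also lost without sh-SOX4 replicate 1 (adjusted p = 0.0851), and the HNRNPL call without sh-SOX4 replicate 2 (adjusted p = 0.0896).

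Among the hnRNP A/B and D genes, 4 of 9 rose and 2 fell. HNRNPAB, a relative of HNRNPD that binds RNA and DNA, had 328 and 326 CPM in sh-SOX4 libraries, against 219.5 and 206 CPM in sh-Scb libraries (log2 fold change 0.62, SE 0.045, adjusted p = 3.25e-06). HNRNPDL, the HNRNPD-like protein, had 469 and 455 CPM with sh-SOX4, against 344 and 340.1 CPM with sh-Scb (log2 fold change 0.43, adjusted p = 1.51e-05). HNRNPA3 and HNRNPA2B1, which bind transcripts in the nucleus much as HNRNPA1 does, had log2 fold changes of 0.29 (adjusted p = 0.000221) and 0.28 (adjusted p = 0.000574). HNRNPD (AUF1), which binds AU-rich elements and controls transcript decay, was not called, with 510.1 and 483 CPM with sh-SOX4, against 489 and 474 CPM with sh-Scb. HNRNPA1, the exon-silencing protein with the most counts among the members, had 2265 and 2194 CPM in sh-SOX4 libraries, against 2337 and 2200.1 CPM in sh-Scb libraries. Its groups overlapped, and the 95% interval of its log2 fold change was -0.11 to 0.06 (adjusted p = 0.649). Under library totals HNRNPA1 was called lower, at -0.12 (adjusted p = 0.0263). The table also holds 74 pseudogene copies of HNRNPA1, whose summed counts were 3.56% and 3.34% of its own in sh-SOX4 libraries, against 3.79% and 3.98% in sh-Scb libraries.

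HNRNPA0, an intronless gene whose protein binds AU-rich elements of cytokine and other transcripts, fell the most of the well-counted members. It lies at chr5:137745651-137754376 and had 131 and 140.5 CPM in sh-SOX4 libraries, against 213 and 199 CPM in sh-Scb libraries. Both sh-SOX4 libraries were below both sh-Scb libraries, at 65.9% of the control level (log2 fold change -0.60, SE 0.054, adjusted p = 1.28e-05). HNRNPA1L2, a retrocopy whose coding sequence is 98.4% identical to that of HNRNPA1, had 27.3 and 22.8 CPM with sh-SOX4, against 33.8 and 29.4 CPM with sh-Scb (log2 fold change -0.34, SE 0.11, adjusted p = 0.0362). Reads of such copies cannot be told apart with certainty, and its adjusted p was 0.213 without sh-SOX4 replicate 2 and 0.164 without sh-Scb replicate 1. HNRNPA1L3, another copy, was not called (log2 fold change -0.16, adjusted p = 0.249).

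HNRNPU (SAF-A), which binds chromatin-associated RNA and the nuclear scaffold, rose and is among the most counted members. It had 1077 and 1067 CPM in sh-SOX4 libraries, against 708 and 701 CPM in sh-Scb libraries, a 1.52-fold difference (log2 fold change 0.61, SE 0.036, adjusted p = 8.76e-07). COX20 covers 15.6% of its exonic bases. HNRNPUL1, an HNRNPU relative with a part in the response to DNA breaks, had a log2 fold change of 0.16 (adjusted p = 0.0100). This adjusted p was 0.263 under library totals, 0.0578 at 10 CPM or more and 0.124 without sh-SOX4 replicate 2. HNRNPUL2 was not called (log2 fold change -0.12, adjusted p = 0.0638). It was called lower under library totals (-0.22, adjusted p = 0.00413), at 10 CPM or more (-0.19, adjusted p = 0.00520), with protein-coding IDs only (adjusted p = 0.0109) and without sh-SOX4 replicate 1 (adjusted p = 0.0416). The ID of the read-through transcript HNRNPUL2-BSCL2 was called higher (log2 fold change 0.49, adjusted p = 0.00242), but shares 100% of its exonic bases with other genes, so that the count is uncertain.

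HNRNPC, which binds uridine tracts and keeps Alu elements from being taken as exons, had 881 and 878 CPM in sh-SOX4 libraries, against 699 and 672 CPM in sh-Scb libraries (log2 fold change 0.36, SE 0.038, adjusted p = 3.96e-05). HNRNPF and HNRNPH2, which bind G-tracts, both rose, while their relatives HNRNPH1 and HNRNPH3 were not called. HNRNPF had 539 and 533 CPM with sh-SOX4, against 404 and 390.5 CPM with sh-Scb (log2 fold change 0.43, SE 0.040, adjusted p = 1.48e-05). HNRNPH2 had 75.2 and 72.1 CPM with sh-SOX4, against 57.4 and 52.9 CPM with sh-Scb (log2 fold change 0.42, SE 0.064, adjusted p = 0.000454). HNRNPH1 had 858 and 822 CPM with sh-SOX4, against 875 and 921 CPM with sh-Scb (log2 fold change -0.10, adjusted p = 0.0877). It was called lower under library totals (-0.20, adjusted p = 0.00370), at 10 CPM or more (-0.16, adjusted p = 0.00584), with protein-coding IDs only (adjusted p = 0.0126) and without sh-Scb replicate 1 (adjusted p = 0.0101). HNRNPH3 had 234 and 225 CPM with sh-SOX4, against 217 and 224 CPM with sh-Scb (log2 fold change 0.06, adjusted p = 0.321). The coding sequences of HNRNPH2 and HNRNPH1 are 87.7% identical. The difference in response between these relatives was not tested.

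**Figure D3:**
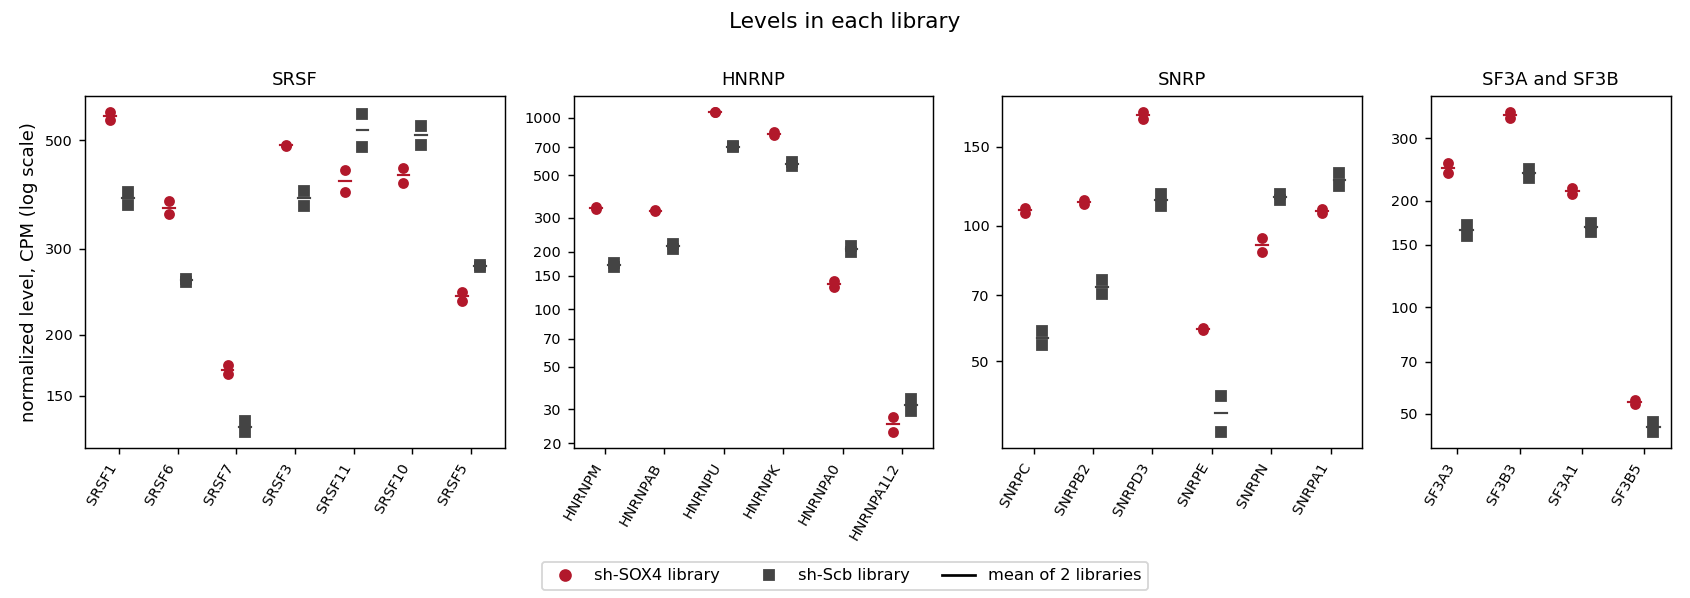
Level of the 23 members named by rule in each library (CPM, log scale), with the mean of each group of 2 as a short line. The rule took only genes whose groups do not overlap, so their separation here is not a result. In sh-Scb libraries SRSF11 (485 and 565 CPM) and SNRPE (41.8 and 34.7 CPM) are among those with a wide spread within a group.

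Promoter sequence was compared with the direction of change. RefSeq promoter windows (GRCh38.p14, 250 bases before to 50 after a start site) were matched for 54 of the 60 members. The E-box CACGTG, a palindrome read alike on both strands and the letters bound by MYC-MAX and other helix-loop-helix pairs, was searched for in each. It occurred in 8 of 54 members (14.8%), against 7.43% of all 27305 windows and 9.85% of those of protein-coding genes tested. By family it was in 7 of 24 HNRNP windows and 1 of 8 SF3A and SF3B windows, and in none of the 11 SRSF or 11 SNRP windows. By direction it was in 5 of 30 windows of members that rose, 0 of 8 that fell and 3 of 13 not called. Among all protein-coding genes tested, the letters were in 445 of 3415 windows of those called higher, 212 of 2623 (8.08%) of those called lower and 434 of 5037 (8.62%) of those not called. ACAAAG, letters close to the core that SOX proteins bind, searched on both strands and chosen after the data were seen, occurred in 8 of 54 member windows (14.8%), against 16.0% of all windows and 10.6% of those of protein-coding genes tested. The letters ACAAAG occur in the windows of HNRNPM and HNRNPA0 and not in that of HNRNPH2. No binding was measured. Shown are the window of the member with the largest rise (HNRNPM, chr19:8444725-8445024, plus strand), the only one with 2 copies (HNRNPH2, chrX:101407972-101408271, plus strand) and that of the largest fall among well-counted members (HNRNPA0, chr5:137754314-137754613, minus strand), 5′ to 3′ along the gene, with CACGTG in capitals. In HNRNPM the letters start 42 bases before the start site, and in HNRNPH2 42 and 9 bases before it.
HNRNPM: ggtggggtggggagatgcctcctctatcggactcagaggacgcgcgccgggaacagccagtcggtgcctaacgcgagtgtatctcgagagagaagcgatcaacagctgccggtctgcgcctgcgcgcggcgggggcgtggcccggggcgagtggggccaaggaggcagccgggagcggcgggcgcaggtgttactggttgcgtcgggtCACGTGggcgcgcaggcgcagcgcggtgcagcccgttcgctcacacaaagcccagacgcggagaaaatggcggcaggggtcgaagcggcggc
HNRNPH2: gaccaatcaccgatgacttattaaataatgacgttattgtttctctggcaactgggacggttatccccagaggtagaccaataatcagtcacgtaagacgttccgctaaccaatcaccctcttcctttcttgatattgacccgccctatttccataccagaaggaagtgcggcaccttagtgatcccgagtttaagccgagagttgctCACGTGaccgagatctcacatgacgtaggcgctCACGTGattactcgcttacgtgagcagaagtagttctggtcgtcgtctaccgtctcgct
HNRNPA0: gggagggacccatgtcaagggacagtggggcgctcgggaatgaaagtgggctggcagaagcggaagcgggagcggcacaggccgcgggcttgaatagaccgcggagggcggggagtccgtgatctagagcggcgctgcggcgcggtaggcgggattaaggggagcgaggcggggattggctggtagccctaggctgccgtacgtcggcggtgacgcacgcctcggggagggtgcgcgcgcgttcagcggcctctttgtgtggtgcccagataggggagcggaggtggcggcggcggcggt

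The snRNP proteins had the highest family median: of 12 genes, 8 rose, 2 fell and 2 were not called. SNRPC, the U1 protein that steadies the pairing of U1 RNA with the 5′ splice site, rose most. It lies at chr6:34757406-34773794 and had 107 and 109 CPM in sh-SOX4 libraries, against 54.2 and 58.2 CPM in sh-Scb libraries. Both sh-SOX4 libraries were well above both sh-Scb libraries (1.93-fold, log2 fold change 0.95, SE 0.057, adjusted p = 9.20e-07). Of the other U1 and U2 proteins, SNRPB2, which binds a stem-loop of U2 RNA, had 114 and 112 CPM with sh-SOX4, against 75.9 and 70.5 CPM with sh-Scb (log2 fold change 0.63, SE 0.056, adjusted p = 1.20e-05). SNRPA1, the partner that SNRPB2 needs to bind U2, went the other way. It had 107 and 109 CPM with sh-SOX4, against 131 and 123 CPM with sh-Scb, without overlap (log2 fold change -0.23, SE 0.052, adjusted p = 0.00473). SNRPA, which binds a stem-loop of U1 RNA, was not called, at 0.12 (adjusted p = 0.118, and 0.0458 without sh-Scb replicate 2).

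The 7 core Sm proteins and the SmB paralog SNRPN form the ring group, in which 6 rose and 1 fell. Their sum was 933 and 892 CPM in sh-SOX4 libraries, against 736 and 677 CPM in sh-Scb libraries. SNRPD3 had 179.7 and 173 CPM with sh-SOX4, against 118 and 111 CPM with sh-Scb (log2 fold change 0.62, SE 0.051, adjusted p = 6.64e-06), and GGT1 and GUCD1 cover 24.6% of its exonic bases. SNRPE had 59.3 and 58.6 CPM with sh-SOX4, against 41.8 and 34.7 CPM with sh-Scb (log2 fold change 0.62, SE 0.089, adjusted p = 0.000323). SNRPD1 and SNRPF rose by similar amounts, with log2 fold changes of 0.57 (adjusted p = 2.45e-05) and 0.57 (adjusted p = 0.000864). All of these sit in the heptamer that closes around the Sm site of the RNA. SNRPD2, the ring partner of SNRPD1, was at 0.18 (adjusted p = 0.0442), a call that was lost in 8 of the alternatives, with an adjusted p of 0.337 under library totals, 0.244 without sh-SOX4 replicate 1 and 0.217 without sh-Scb replicate 2. SNRPG had 81.2 and 63.9 CPM with sh-SOX4, against 61.9 and 48.8 CPM with sh-Scb. Its libraries spread widely, and the 95% interval of its log2 fold change of 0.39 was -0.13 to 0.90 (adjusted p = 0.176). The adjusted p of SNRPG was 0.0445 without sh-SOX4 replicate 2.

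SNRPB and SNRPN encode closely related ring proteins and moved in opposite directions. SNRPB (SmB/B′) had 217 and 218 CPM with sh-SOX4, against 163 and 157 CPM with sh-Scb (log2 fold change 0.44, SE 0.045, adjusted p = 2.74e-05). SNRPN (SmN), made from an imprinted locus at chr15:24823637-24978723 and best known from neurons, had 87.3 and 93.9 CPM with sh-SOX4, against 118 and 114 CPM with sh-Scb (log2 fold change -0.36, SE 0.055, adjusted p = 0.000461). In neither gene did the groups overlap. Their coding sequences are 82.1% identical, SNURF and SNHG14 cover 33.6% of the exonic bases of SNRPN, and another gene covers just over 20% of those of SNRPB. Without the members that share at least 20% of exonic bases, 1 SNRP gene was called lower, SNRPA1.

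Of the 9 SF3A and SF3B genes, 4 rose and none fell, and SF3B1 was not called. The share called was 44.4%, against 44.1% of all tested IDs and 63.1% of those at 10 CPM or more. SF3A3, a zinc-finger subunit of SF3A, had 256 and 239.9 CPM in sh-SOX4 libraries, against 171 and 159 CPM in sh-Scb libraries (log2 fold change 0.59, SE 0.052, adjusted p = 1.23e-05). SF3A1, which carries a ubiquitin-like domain and contacts U1, had 209 and 217 CPM with sh-SOX4, against 163 and 173 CPM with sh-Scb (log2 fold change 0.34, SE 0.048, adjusted p = 0.000245). SF3A2 overlapped between groups and was not called (log2 fold change -0.05, adjusted p = 0.528). SF3B3 and SF3B5, which also belong to the SAGA transcription complex, were the SF3B genes called higher. SF3B3 had 343 and 357 CPM with sh-SOX4, against 246 and 232 CPM with sh-Scb (log2 fold change 0.55, SE 0.046, adjusted p = 8.15e-06). SF3B5 had 54.7 and 53.4 CPM with sh-SOX4, against 47.3 and 44.3 CPM with sh-Scb (log2 fold change 0.24, SE 0.068, adjusted p = 0.0173), and its adjusted p was 0.125 under library totals, 0.0882 without sh-SOX4 replicate 1 and 0.0976 without sh-Scb replicate 2.

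SF3B1, the HEAT-repeat scaffold that clamps the branch site and is mutated in myelodysplasia and chronic lymphocytic leukemia, had 653 and 644 CPM in sh-SOX4 libraries, against 658 and 638 CPM in sh-Scb libraries. The groups overlapped, the means were 649 ± 6.59 CPM with sh-SOX4 and 648 ± 14.1 CPM with sh-Scb, and the 95% interval of the log2 fold change was -0.08 to 0.09 (adjusted p = 0.990). SF3B2, SF3B4 and SF3B6, the last of which lies at the branch adenosine, were at 0.06 (adjusted p = 0.256), 0.14 (adjusted p = 0.0919) and 0.16 (adjusted p = 0.0655) on the log2 scale. Their 2 groups did not overlap, yet none passed the test. SF3B4 passed it without sh-Scb replicate 2 (adjusted p = 0.0322) and SF3B6 without sh-Scb replicate 1 (adjusted p = 0.0451). The 9 subunits spanned log2 fold changes of -0.05 to 0.59 in the same libraries.

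Levels per kilobase of exonic length set the genes beside each other only roughly. The length used is the union of all annotated exons of a gene, such as 22512 bases for HNRNPU. Genes with much annotated sequence therefore come out lower, and the ranks below depend on this length. On this scale, in CPM per kilobase, HNRNPA1 was the highest member at 438 with sh-SOX4 and 445 with sh-Scb. Among sh-SOX4 means SNRPB came next, at 170.1 with sh-SOX4 and 125 with sh-Scb. SRSF1 was at 168 with sh-SOX4 and 114 with sh-Scb. HNRNPF was at 165 with sh-SOX4 and 122 with sh-Scb, and HNRNPK at 162 with sh-SOX4 and 112 with sh-Scb. Among sh-Scb means the gene after HNRNPA1 was SRSF2, at 159 with sh-SOX4 and 136 with sh-Scb. Since the sh-SOX4 levels of SNRPB, SRSF1, HNRNPF and HNRNPK lie within 162 to 170.1, their order is not firm. SF3B1 was at 70.8 with sh-SOX4 and 70.7 with sh-Scb, beside SNRPD3 at 69.3 with sh-SOX4 and 45.0 with sh-Scb. Among the tested members SRSF12 was lowest at 0.632 with sh-SOX4 and 1.03 with sh-Scb.

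Other splicing genes outside the 4 families were read from 8 lists of 161 gene symbols. Of these, 160 matched a gene of the table, and all 160 were tested. In these lists 93 rose and 21 fell, so that 71.3% were called, against 44.1% of all tested IDs and 63.1% of those at 10 CPM or more, and the median log2 fold change was 0.26. The list with the highest median (0.61) was that of the methylosome, which methylates Sm proteins, and the SMN complex, which loads them onto snRNA: 13 of 17 rose and none fell. WDR77 and PRMT5, the methylosome's scaffold and its arginine methyltransferase, changed most in it. WDR77 averaged 78.9 ± 2.47 CPM with sh-SOX4 and 33.9 ± 0.363 CPM with sh-Scb (log2 fold change 1.22, SE 0.063, adjusted p = 3.59e-07), with 36.5% of its exonic bases shared. PRMT5 averaged 145 ± 0.258 CPM with sh-SOX4 and 77.1 ± 4.48 CPM with sh-Scb (log2 fold change 0.91, SE 0.055, adjusted p = 9.19e-07), with 27.1% shared. SMN1 and SMN2 are near-identical copies, so their separate counts are uncertain.

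Among 31 snRNP-specific proteins outside the naming rule, 19 rose and 3 fell (median 0.27). EFTUD2, the U5 GTPase, averaged 259 ± 10.2 CPM with sh-SOX4 and 152 ± 11.0 CPM with sh-Scb (log2 fold change 0.77, adjusted p = 4.19e-06), and SNU13, which binds U4 RNA, was at 0.64 (adjusted p = 2.17e-05). RNPC3, a protein of the minor spliceosome, and SNRNP70 (U1-70K), the third U1 protein beside SNRPC and SNRPA, fell, at -0.41 (adjusted p = 0.00892) and -0.26 (adjusted p = 0.00143). Of the 3 U1 proteins, SNRPC rose, SNRNP70 fell and SNRPA was not called. Of 13 genes of branch site and 3′ splice site recognition, 9 rose and none fell (median 0.27), led by PUF60, a poly(U)-binding partner of U2AF, at 0.82 (adjusted p = 7.31e-06) and by PHF5A, a small SF3B subunit named outside the rule, at 0.75 (adjusted p = 3.58e-05). Of 26 PRP19 complex and step helicase genes, 20 rose and 2 fell (median 0.37), with the prolyl isomerase PPIL1 at 1.11 (adjusted p = 4.69e-07) and CTNNBL1, which binds CDC5L, at 0.94 (adjusted p = 1.81e-06). CDC40 (PRP17), a second-step factor, and SYF2 fell, at -0.49 (adjusted p = 8.05e-05) and -0.24 (adjusted p = 0.0224).

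Genes that act on SR proteins or in their manner were more evenly split. Of 21 SR-related genes 8 rose and 6 fell (median 0.05). SON, a large protein of nuclear speckles, averaged 628 ± 7.07 CPM with sh-SOX4 and 467 ± 8.68 CPM with sh-Scb (log2 fold change 0.43, adjusted p = 1.36e-05), and BCLAF1 was at 0.36 (adjusted p = 0.000377). ARGLU1 and LUC7L2, a relative of a U1-associated yeast protein, fell, at -0.51 (adjusted p = 3.00e-05) and -0.38 (adjusted p = 8.15e-05). LUC7L2 shares 23.7% of its exonic bases with other genes. Of 8 kinases of SR proteins, 4 rose and 2 fell (median 0.13). SRPK1 and SRPK2 had the largest of the 4 rises, at log2 fold changes of 0.26 (adjusted p = 0.000864) and 0.29 (adjusted p = 0.000583). The 2 that fell were CLK2 and CLK3. CLK2 was at 20.9 ± 2.40 CPM with sh-SOX4 and 36.1 ± 1.37 CPM with sh-Scb (log2 fold change -0.79, SE 0.10, adjusted p = 0.000149), and CLK3 at -0.25 (adjusted p = 0.0196).

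Of 29 other regulators of exon choice, 9 rose and 6 fell (median 0.03). PTBP1, the polypyrimidine tract binding protein, averaged 615 ± 15.1 CPM with sh-SOX4 and 384 ± 6.54 CPM with sh-Scb (log2 fold change 0.68, SE 0.040, adjusted p = 8.65e-07). Its paralog PTBP3 averaged 369 ± 28.3 CPM with sh-SOX4 and 525 ± 36.9 CPM with sh-Scb (log2 fold change -0.51, SE 0.066, adjusted p = 0.000475). The muscleblind protein MBNL1 was at 0.54 (adjusted p = 7.98e-06) and the STAR-family protein QKI at -0.77 (adjusted p = 0.000812). Of 15 exon junction and nonsense-mediated decay genes, 11 rose and 2 fell (median 0.28). MAGOH and RBM8A, which pair in the junction core, rose by 0.60 (adjusted p = 0.00147) and 0.55 (adjusted p = 1.79e-05), whereas the decay endonuclease SMG6 and its pathway partner UPF3A fell, at -0.44 (adjusted p = 0.00105) and -0.27 (adjusted p = 0.00701). Among these, MAGOH has the near-identical copy MAGOHB, and RBM8A and SMG6 share 26.9% and 25.4% of their exonic bases with other genes. Differences between the lists were not tested, and the gene counts give no exon usage, so splicing itself was not measured.

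**Figure D4:**
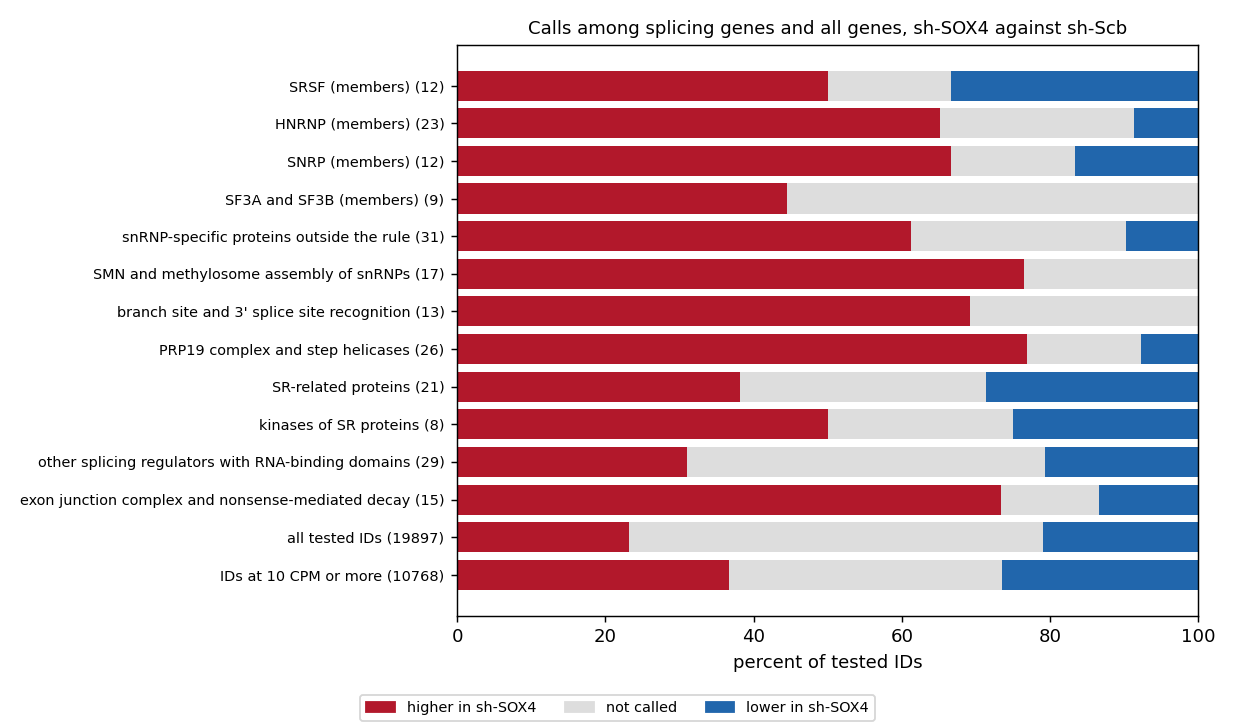
Percent of tested genes called higher (left), not called and called lower (right) with sh-SOX4 in the 4 families, the 8 other splicing lists and all IDs, with the number tested in parentheses. The assembly list (SMN and methylosome) has 13 of 17 called higher and none lower, while SR-related genes (8 higher, 6 lower of 21) and other regulators (9 and 6 of 29) were more evenly split, as were all tested IDs (23.2% higher, 20.9% lower).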

How the data were processed

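RNA-seq of Jurkat cells with sh-SOX4 or sh-Scb (2 libraries each) was read from the deposited table of counts, whole reads per gene that the authors left unnormalized. Per the labels' protocols, TRIzol was used to take total RNA, and the library kit was Illumina TruSeq RNA. The submitters' processing notes name the build hg38 with HISAT2 2.2.0 and StringTie. The sources used here do not give what each tool did, the annotation release, filters or strand use. Overlapping genes therefore cannot be told apart by their reads. Control columns are named NC and were taken as sh-Scb because the other columns name SOX4.

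Of 64252 IDs, 56591 are in GENCODE release 29 (GRCh38), the source of coordinates, biotypes and exon overlaps. Promoter windows are from RefSeq (GRCh38.p14), using the first one listed per gene. Library totals of 29093287 to 36636219 put 3 counts at 0.0794 to 0.101 CPM, a floor for counting error only.

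Counts were filtered with filterByExpr (minimum count 10, minimum total 15) and TMM scaling was applied. The robust quasi-likelihood model of edgeR 4.0.16 (R 4.3.3) was fitted by group. Benjamini-Hochberg adjustment ran over 19897 IDs. The SE is the log2 fold change divided by the square root of F. There were 2 residual degrees of freedom, to which the model adds prior ones estimated across genes. The intervals and p-values use that total. No label says whether separate cultures were used, so the p-values reflect the spread of these samples only, and that spread may be technical. Libraries of a group differed beyond sampling (median chi-square per gene 1.59 with sh-SOX4 and 1.70 with sh-Scb, against 0.455 for sampling alone). The analysis was tested on simulated data. DESeq2 1.42.0, limma-voom (limma 3.58.1), other scalings and filters, a replicate block and leaving out each library were alternatives.

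Members, gene lists and the smaller groups within families, which were drawn up by hand, were chosen with earlier results of these data known. The rule for named genes took, in each family, up to 4 rises and 4 falls with adjusted p under 0.05, at least 2 in mean log2 CPM and groups without overlap, with members called against their family's direction, and the 2 largest changes in each direction of each list. The other members are named to account for all of them. Copies added to members, members without shared exonic bases and the letters ACAAAG were chosen after seeing the data.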

Additional observations from a re-analysis of the deposited data

How the results depend on the processing

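SOX4 stayed lower and past the threshold under every alternative run (log2 fold change -0.59 to -0.46). The members called numbered 41 in the analysis above, 41 with median-ratio size factors, 39 with library totals (35 of them shared), 40 with no filter, 41 at 10 CPM or more, 43 with protein-coding IDs only, 39 with DESeq2 and 39 with limma-voom, and 36 to 42 when one library was left out. Over all IDs the calls numbered 8775, and 7149 to 8889 under the alternatives. HNRNP falls numbered 2, against 5 with library totals, 4 at 10 CPM or more and 4 with protein-coding IDs only, and 1 to 3 without one library. Without one library, member falls ranged over 4 to 8 and SRSF falls over 1 to 4, the lowest counts coming without sh-SOX4 replicate 2. Without members sharing 20% or more of exonic bases, an alternative added after seeing the data, 3 SRSF genes rose (6 with them) and 1 SNRP gene fell (2 with them). Adding the counts of pseudogene copies changed no member's call.

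Members whose direction reversed had missed the test. With library totals the log2 fold changes were -0.0537 for HNRNPD, -0.0406 for HNRNPH3, -0.0983 for SF3B1 and -0.0370 for SF3B2. At 10 CPM or more they were -0.0181 for HNRNPD, -0.00490 for HNRNPH3, -0.0626 for SF3B1 and -0.00139 for SF3B2. SF3B1 was also at -0.00212 with no filter, -0.0400 with protein-coding IDs only, -0.00202 with DESeq2 and -0.000264 with limma-voom. Without one library, SF3B1 ranged from -0.0217 to 0.0232 (-0.00967 without sh-SOX4 replicate 1), SF3A2 from -0.105 to 0.00425 and HNRNPA1 from -0.0684 to 0.0192. The cause was not tested, apart from the scaling that these settings change.

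The deviations of same-numbered libraries from their group means correlated at -0.0103. This value cannot show whether such libraries shared a culture or a batch. With the replicate number as a block, 41 members and 8378 IDs were called, SNRPG was called higher (adjusted p = 0.000967 by edgeR) and SRSF11 was not (0.0618). With 2 libraries a group, low-count members such as SRSF12 have wide intervals.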
